A study of Bos taurus with 8 samples.

Results

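The Wnt ligands, receptors and antagonists of the bovine corpus luteum were compared between large luteal cells (LLC) and small luteal cells (SLC). Members were taken by gene symbol: the WNT, FZD, SFRP, DKK, LGR, RSPO, DVL, AXIN, TCF7 and LRP5/6 families with FRZB, WIF1, CTNNB1, APC, LEF1, PORCN, WLS and GSK3B. This gave 60 genes on 64 transcript clusters, of 18010 symbols and 24415 clusters on the array. WNT4 and FZD6 were not analysed here. Where a gene had several clusters, the cluster of the highest mean over all arrays was used. LLC (n = 4) and SLC (n = 4) came from mature corpora lutea of lactating Holstein cows, collected at mid-cycle after synchronisation with cloprostenol, dispersed with collagenase, enriched on a Percoll gradient and separated by FACS after staining of DNA. The labels number the biological replicates 1 to 4 in each cell type but do not say whether an LLC and an SLC sample came from the same cow. The paper sorted both fractions from a mixed cell preparation but does not state which samples shared a corpus luteum. Each p-value sets a difference between the cell types against the spread between samples of a cell type, whose sources are not known.

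Wnt proteins are secreted ligands. PORCN adds the lipid they need, WLS carries them to the cell surface, and they bind Frizzled receptors together with the co-receptors LRP5 and LRP6. Through the Dishevelled proteins (DVL), binding inhibits a complex of APC, AXIN and GSK3B that otherwise marks beta-catenin (CTNNB1) for destruction, and beta-catenin then acts with TCF and LEF factors on target genes. SFRP, FRZB and WIF1 bind Wnt ligands outside the cell, DKK1 and DKK2 bind LRP5 and LRP6, and R-spondins bind LGR receptors and thereby keep Frizzled receptors at the surface. In mice, Wnt signaling is needed for the development of the ovary. No sequence is shown, since none was at hand for these genes.

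The values deposited by the authors were log2 signals after RMA. Array medians ranged from 3.13 to 3.24, and Pearson's r over all clusters was 0.978 to 0.986 among LLC arrays and 0.989 to 0.991 among SLC arrays. LLC replicate 4 was the LLC array most like SLC, with r of 0.972 to 0.977 with SLC arrays, against 0.949 to 0.968 for the other LLC arrays. The array weights of limma, which are lower for more variable arrays, did not single it out. They were 0.62, 1.11, 0.74 and 0.67 in LLC replicates 1 to 4, and 1.25 to 1.44 in SLC. The cell type labels were checked with markers. All 7 genes of the granulosa lineage, among them OXT and PTGFR, were higher in LLC. Of 6 theca lineage genes, INSL3 and NR2F2 were higher in SLC. PTCH1, of the same list, was higher on every LLC array (difference 0.37, limma adjusted p = 0.0615). LHCGR was lower in LLC by 1.17 (adjusted p = 0.0593), and GLI1 differed by 0.03. CYP17A1, another theca gene, had a mean signal of 3.74 in LLC and 3.79 in SLC. Of 7 markers of luteal steroidogenic cells, CYP11A1 and FDX1 were higher in LLC. INHA, of that list, was 2.36-fold higher in SLC (adjusted p = 0.00348). Clusters of olfactory receptors, taken as a background, reached 2.34 in LLC and 2.26 in SLC at their 95th percentile. Since the probes of different genes do not share a scale, no order of expression between genes is read from the signals. The mean signal served only to choose which members that were not called are shown array by array.

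Called here means an adjusted p under 0.05 in the limma fit of all clusters. Of the 60 members, 6 were called higher in LLC and 9 in SLC. The shares are 10% and 15%, where 9.64% and 10.2% of all clusters were called in these directions. Higher in LLC were the ligands WNT11 and WNT2B, the receptor LGR4 and, by smaller amounts, GSK3B, DVL1 and TCF7. Higher in SLC were the secreted antagonists DKK2, DKK3, SFRP1 and SFRP2, the transcription factors LEF1, TCF7L1 and TCF7L2, the receptor FZD1 and the transducer DVL3. The stricter filter of the study, which adds a fold above 2, was passed by WNT11, WNT2B and LGR4 on the LLC side (5.0% of members, 2.39% of all clusters, with LGR4 under 2-fold without LLC replicate 2) and by the 4 antagonists on the SLC side (6.67% of members, 3.07% of all clusters). The 4 LLC arrays lay above all 4 SLC arrays for 7 members (11.7%, against 11.2% of all clusters) and below all of them for 9 (15%, against 11.3%). Over all members the median LLC minus SLC difference was -0.06, and over all clusters 0.02. Both cell types are sorted fractions, so fewer cells of a kind and less RNA per cell cannot be told apart.

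**Figure D1:**
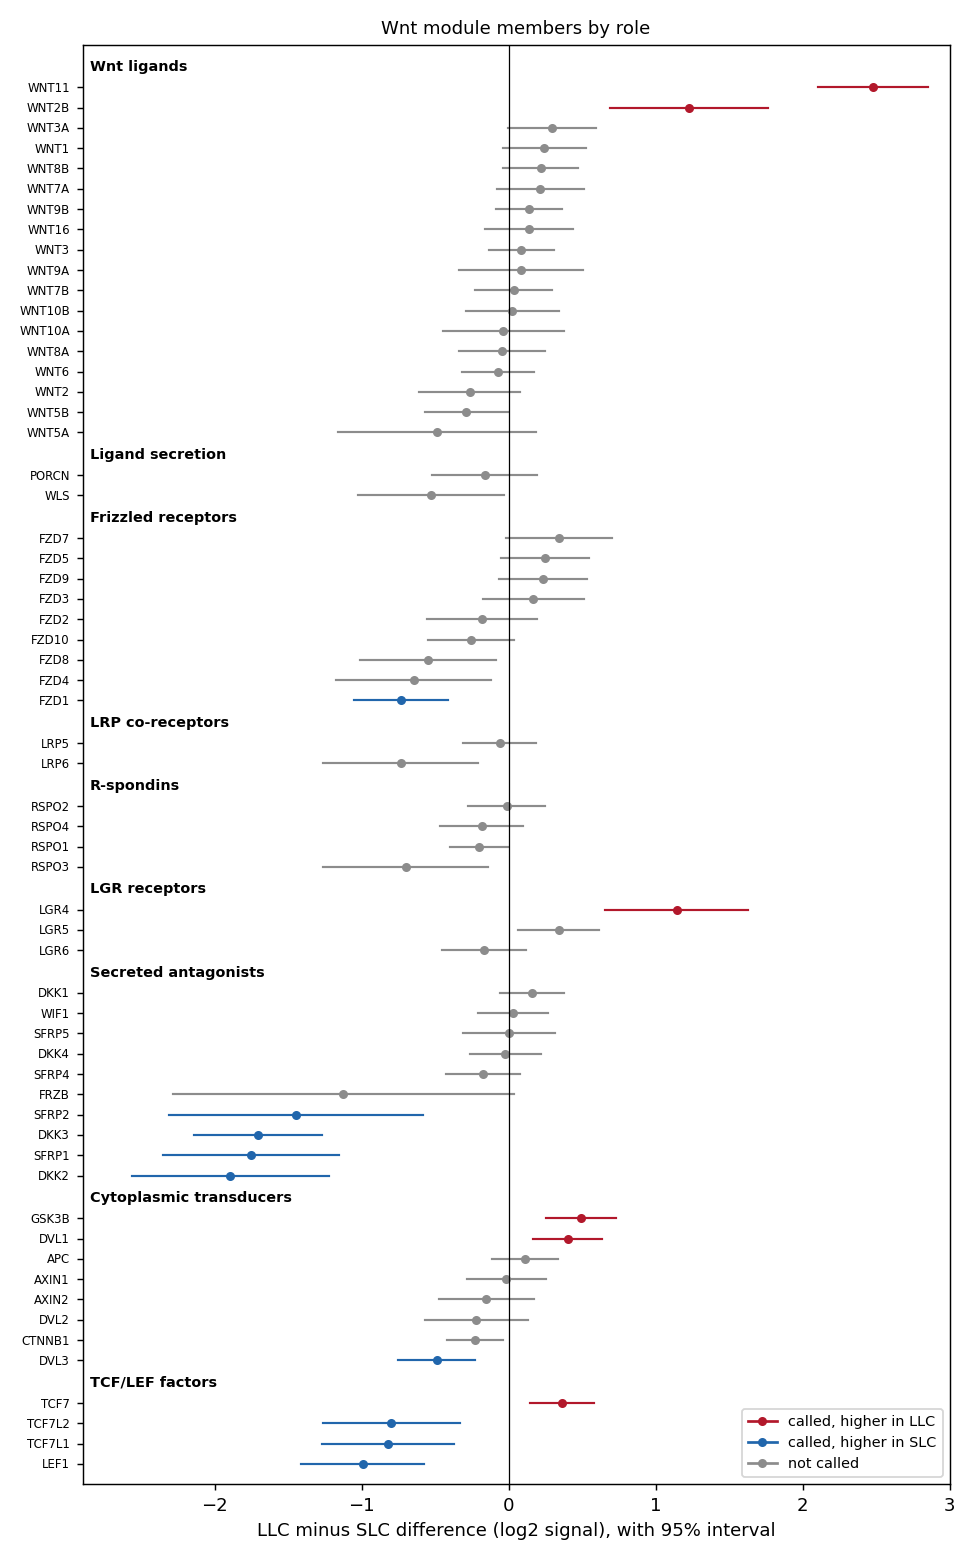
LLC minus SLC difference in log2 signal (horizontal axis) of each of the 60 members, grouped by role, with the 95% interval of the limma fit. Red and blue mark the 6 members called higher in LLC and the 9 called higher in SLC, and grey the others. WNT11 and WNT2B lie to the right of the other ligands, and all 4 TCF/LEF factors are called. Of all clusters, 9.64% were called higher in LLC and 10.2% higher in SLC.

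Among 18 Wnt ligands, 2 were called and both were higher in LLC (11.1%, near the 9.64% of all clusters). The median difference of the ligands was 0.09. WNT11, a ligand best known for signaling without beta-catenin (transcript cluster 12733368), had log2 signals of 5.60, 5.81, 5.74 and 5.14 in LLC replicates 1 to 4, against 3.26, 2.77, 3.21 and 3.13 in SLC replicates 1 to 4. The groups did not overlap, and the lowest LLC array lay far above the highest SLC array. WNT11 was 5.58-fold higher in LLC (difference 2.48, SE 0.17, limma adjusted p = 3.73e-05). WNT2B (cluster 12843050), a ligand that signals through beta-catenin, was at 4.50, 4.07, 3.53 and 3.98 in LLC and at 3.21, 2.98, 2.78 and 2.21 in SLC. All LLC arrays were again higher, although the gap between the lowest LLC array and the highest SLC array was small. The difference was 1.23 (SE 0.24, limma adjusted p = 0.00629), a fold of 2.34.

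The other 16 ligands were not called, with differences from -0.49 to 0.29 and 95% intervals that lay between -1.16 and 0.59. WNT5A, another ligand that acts largely without beta-catenin, varied widely between samples, with 4.73, 4.67, 3.73 and 3.80 in LLC and 4.18, 4.54, 5.41 and 4.76 in SLC. Its arrays overlapped (difference -0.49, interval -1.16 to 0.18). WNT8B was at 3.95, 3.68, 3.80 and 3.80 in LLC and 3.72, 3.37, 3.53 and 3.74 in SLC (difference 0.22, SE 0.12). WNT7A was at 3.72, 3.62, 3.84 and 3.84 in LLC and 3.76, 3.20, 3.55 and 3.65 in SLC (difference 0.22, SE 0.13). For both genes the groups overlapped. WNT2 and WNT8A lay within the range of the olfactory receptors in both cell types, where a difference could hardly be seen.

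Of the 2 genes for the release of ligands, neither was called. PORCN was at 4.06, 4.16, 3.62 and 4.18 in LLC and 4.28, 3.83, 4.35 and 4.22 in SLC, with overlapping groups (difference -0.17, interval -0.52 to 0.19). WLS was at 5.95, 5.92, 5.79 and 6.94 in LLC and at 6.63, 6.65, 6.72 and 6.71 in SLC. LLC replicates 1 to 3 lay below every SLC array, while LLC replicate 4 lay above them all. The difference of -0.53 (limma adjusted p = 0.138) was -0.79 without LLC replicate 4 (adjusted p = 0.000626).

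FZD1 was the only called gene of 9 Frizzled receptors. It was at 4.03, 4.38, 4.41 and 4.31 in LLC, against 4.78, 5.14, 4.84 and 5.30 in SLC. No LLC array reached the SLC range, and the signal was 1.66-fold higher in SLC (difference -0.73, SE 0.14, limma adjusted p = 0.00604). The share of 11.1% was near the 10.2% of all clusters. FZD4, which also serves as a receptor for Norrin in endothelial cells, was at 5.02, 5.18, 4.41 and 5.56 in LLC and 5.63, 5.94, 5.27 and 5.92 in SLC (difference -0.65, interval -1.18 to -0.12, limma adjusted p = 0.0869). LLC replicate 4 fell inside the SLC range, and without it the difference was -0.82 (adjusted p = 0.0265). FZD8 was at 3.92, 4.58, 3.89 and 4.39 in LLC and 4.47, 4.79, 4.50 and 5.22 in SLC, with an overlap of the groups (difference -0.55, adjusted p = 0.0960). FZD7 had the opposite sign, at 4.94, 4.81, 4.80 and 5.09 in LLC and 4.29, 4.39, 4.56 and 5.03 in SLC. SLC replicate 4 was the SLC array within the LLC range. The difference of 0.34 (adjusted p = 0.184) was 0.50 without that array (adjusted p = 0.0289). FZD3, FZD5 and FZD9 differed by 0.17 to 0.25, and FZD2 and FZD10 lay within the background in both cell types. The median of the receptors was -0.19, and 0.17 where dim clusters were left out.

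The co-receptor LRP6 was at 5.46, 5.48, 5.56 and 6.60 in LLC and at 6.43, 6.55, 6.70 and 6.36 in SLC. As for WLS, LLC replicates 1 to 3 lay together and below SLC, and LLC replicate 4 lay within the SLC range. LRP6 thus missed the threshold over all arrays (difference -0.74, SE 0.24, limma adjusted p = 0.0549), and passed it without LLC replicate 4 (difference -1.01, adjusted p = 0.000393). With all 8 arrays it also passed with array medians subtracted (adjusted p = 0.0496), with array weights (0.0248) and with dim clusters left out (0.0382). LRP5 was at 5.86, 6.11, 6.25 and 6.11 in LLC and 6.16, 6.09, 6.28 and 6.05 in SLC, with much the same range in both (difference -0.06, interval -0.31 to 0.18).

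TCF7L2, a TCF factor, had the same arrangement of arrays, with 5.57, 5.17, 5.49 and 6.31 in LLC and 6.42, 6.29, 6.51 and 6.52 in SLC. It was called (difference -0.80, SE 0.21, limma adjusted p = 0.0229), and the difference was -1.03 without LLC replicate 4 (adjusted p = 0.000647). The call was lost without LLC replicate 1, 2 or 3 or without SLC replicate 1, 3 or 4, with adjusted p of 0.0536 to 0.0639. LLC replicates 1 to 3 lay below all SLC arrays in 15 members, and in 6 of these (40%) LLC replicate 4 did not. These were LRP6, WLS, TCF7L2, FZD4, RSPO4 and WNT5B. Over all clusters the same held for 892 of 3640 (24.5%). The pattern was picked out after the values had been seen. The summed linear signal of 6 theca lineage markers was 1030 in LLC replicate 4, against 392 to 634 in the other LLC arrays and 1110 to 1760 in SLC. That of 5 lymphatic endothelial markers was 1400 in LLC replicate 4, against 648 to 863 in the other LLC arrays and 852 to 1650 in SLC, and that of 7 granulosa lineage markers 5020, against 6630 to 7240 and 266 to 720. In the theca list, LHCGR, NR2F2 and GLI1 were higher in LLC replicate 4 than in the other LLC arrays, and PTCH1 lower. INSL3 (5.83, against 5.30 to 6.83) and CYP17A1 lay among those arrays. The sums of fibroblast (3970), pericyte and smooth muscle (357), vascular endothelial (721) and macrophage (107) markers in LLC replicate 4 also lay among them. The part of these cells in the values of LLC replicate 4 was not tested.

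**Figure D2:**
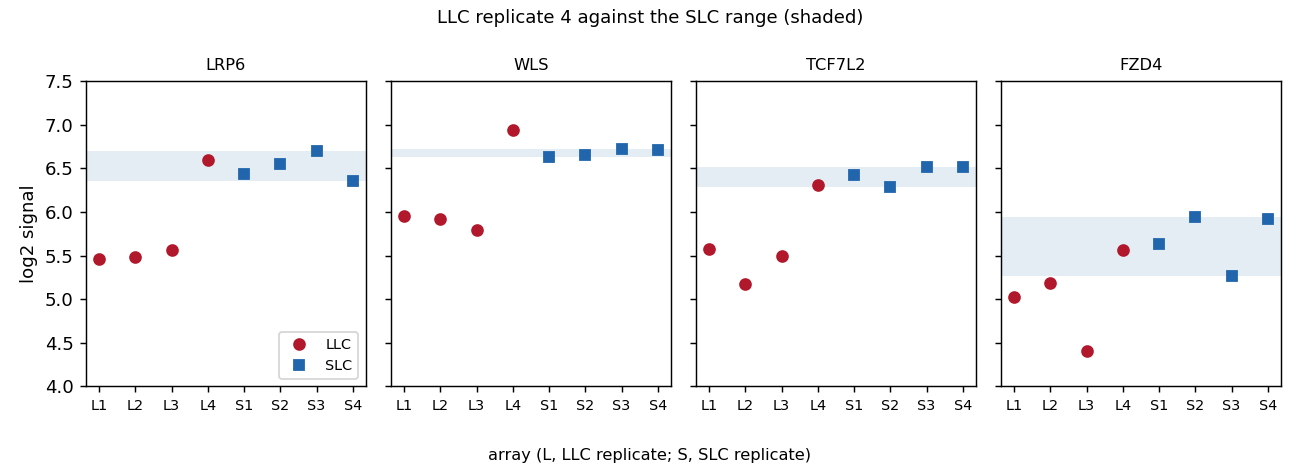
Log2 signal (vertical axis) of LRP6, WLS, TCF7L2 and FZD4 on the 4 LLC arrays (red) and the 4 SLC arrays (blue), with the SLC range shaded. LLC replicates 1 to 3 lie below the shaded range for each gene, and LLC replicate 4 lies inside or above it.

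LGR4, a receptor for R-spondins (cluster 12731200), was at 8.24, 8.69, 7.98 and 7.49 in LLC and at 6.84, 6.99, 6.88 and 7.12 in SLC. All LLC arrays were higher, with LLC replicate 4 nearest to SLC. The signal was 2.21-fold higher in LLC (difference 1.14, SE 0.22, limma adjusted p = 0.00530), and the difference was 1.35 without LLC replicate 4 and 0.95 without LLC replicate 2, which is under 2-fold. LGR5, a stem cell marker and Wnt target, lay within the background in both cell types, at 1.83, 1.5, 1.99 and 1.64 in LLC and 1.30, 1.48, 1.48 and 1.34 in SLC. Its difference of 0.34 had an adjusted p of 0.0826, or 0.0440 without LLC replicate 2, and is not read as expression. LGR6 was at 3.23, 3.6, 3.59 and 3.72 in LLC and 3.81, 3.68, 3.52 and 3.81 in SLC, with overlapping groups (difference -0.17, interval -0.46 to 0.12).

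None of the 4 R-spondins was called with limma, while RSPO1 and RSPO3 had an unadjusted p under 0.05 (0.0481 and 0.0196). RSPO3 was at 2.40, 2.59, 2.38 and 2.56 in LLC and at 3.04, 3.41, 2.43 and 3.86 in SLC. The LLC arrays were close to each other and the SLC arrays were not, as SLC replicate 3 lay in the LLC range. The difference was -0.70 (adjusted p = 0.0815), and -0.95 without SLC replicate 3 (adjusted p = 0.00966). A second cluster of RSPO3 had a mean of 1.79 in LLC, within the background, and 2.76 in SLC (adjusted p = 0.0249). Since the LLC signal is not above background, the size of that difference is not read. RSPO3 was called in 3 of the 18 alternative settings. These were the mean of its clusters, the replicate block and leaving out SLC replicate 3. RSPO4 was at 3.78, 3.65, 3.61 and 4.07 in LLC and 4.00, 3.79, 3.96 and 4.10 in SLC (difference -0.19, adjusted p = 0.379). RSPO1 was at 2.07, 2.16, 2.07 and 2.12 in LLC and 2.39, 2.23, 2.26 and 2.34 in SLC. These groups did not overlap, although the difference was only -0.20 (adjusted p = 0.158) and the LLC mean lay within the background. RSPO2 lay within it in both cell types.

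The secreted antagonists held 4 of the 9 members called higher in SLC and none called higher in LLC. These are 40% of the 10 antagonists, where 10.2% of all clusters were called in that direction. Of the 10, 7 had a negative difference, and the median was -0.65. DKK2, a ligand of LRP5 and LRP6 (cluster 12872256), was at 5.06, 5.75, 5.21 and 6.55 in LLC, against 7.97, 7.27, 7.55 and 7.36 in SLC. LLC replicate 4 lay nearest to SLC but still below it. The signal was 3.72-fold higher in SLC (difference -1.90, SE 0.30, limma adjusted p = 0.00213). DKK3, a relative of the DKK proteins whose part in Wnt signaling is less clear (cluster 12727136), was at 3.86, 4.26, 3.41 and 4.10 in LLC and 5.60, 5.26, 5.68 and 5.91 in SLC. The groups lay well apart, by a fold of 3.26 (difference -1.71, SE 0.20, adjusted p = 0.000475).

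SFRP1, a secreted relative of the Frizzled receptors (cluster 12824828), was at 2.69, 3.19, 2.62 and 3.01 in LLC, against 3.90, 4.39, 5.01 and 5.22 in SLC. The SLC arrays spread over more than 1 log2 unit, and all of them lay above LLC (3.37-fold, difference -1.75, SE 0.27, limma adjusted p = 0.00181). SFRP2 (cluster 12742481) was at 4.37, 4.72, 4.14 and 3.99 in LLC and 4.69, 5.34, 6.24 and 6.75 in SLC. SLC replicate 1 overlapped with LLC, and the SLC arrays had an SD of 0.92, against 0.32 in LLC. The difference of -1.45 (SE 0.39) had an adjusted p of 0.0252. Without LLC replicate 1, 3 or 4 or SLC replicate 3 or 4 it missed the threshold, with adjusted p of 0.0519 to 0.0710.

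FRZB, an SFRP-like antagonist first known from cartilage, varied most of the antagonists within both cell types, at 1.34, 3.46, 1.73 and 2.51 in LLC and 2.61, 3.34, 2.89 and 4.70 in SLC. Its difference of -1.13 was not called (interval -2.28 to 0.03, limma adjusted p = 0.176). The LLC mean of 2.26 lay within the background, and the difference was -0.72 when lower values were raised to that limit. SFRP4 was at 2.61, 2.35, 2.48 and 2.66 in LLC and 2.69, 2.90, 2.58 and 2.64 in SLC, with overlapping groups (difference -0.18, adjusted p = 0.34). DKK1, DKK4, SFRP5 and WIF1 lay within the background in both cell types. SFRP5 was at 2.48, 2.01, 2.21 and 1.93 in LLC and 2.35, 2.03, 2.22 and 2.03 in SLC, with a mean of 2.16 in each.

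Many, but not all, markers of other cells of the corpus luteum were also higher in SLC. Of all clusters, 10.2% were called on the SLC side and 9.64% on the LLC side. Among 10 fibroblast markers, FBLN1 was called on the LLC side and the other 9 on the SLC side, and their summed linear signal was 2590 to 4690 in LLC and 7830 to 9910 in SLC. For 9 pericyte and smooth muscle markers, 4 were higher in SLC, with sums of 201 to 601 in LLC and 604 to 1180 in SLC. RGS5, which weighs heavily in these sums, was not called (limma adjusted p = 0.193). For 10 vascular endothelial markers, 7 were higher in SLC (252 to 763 in LLC and 948 to 1600 in SLC), and for 9 macrophage markers all 9 were (102 to 147 in LLC and 504 to 674 in SLC). No gene of these lists lay within the background in both cell types, and MSR1, of macrophages, was within it in LLC. Of 9 lymphocyte markers, IL7R was higher in SLC, with a mean of 1.51 in LLC, within the background, and 2.92 in SLC (adjusted p = 0.000345). The 9 summed to 41.3 to 58.6 in LLC and 48.0 to 59.5 in SLC. PTPRC, a gene of all leukocytes, averaged 4.41 in LLC and 4.04 in SLC (adjusted p = 0.480), and CD2, CD3D, CD4, CD8A, CD79A and MS4A1 lay within the background in both cell types. Of 5 lymphatic endothelial markers, FLT4 alone was called, on the SLC side. CCL21 (-2.39), PROX1 (-1.20) and LYVE1 (-1.13) were also lower in LLC but not called (limma adjusted p = 0.0617, 0.123 and 0.127). PDPN, which weighs heavily in the linear sums, averaged 9.27 in LLC and 9.01 in SLC (adjusted p = 0.266). The sums of the 5 markers overlapped (648 to 1400 in LLC and 852 to 1650 in SLC). None of 5 erythrocyte markers was called. The part of these cells in the values of the antagonists was not tested.

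**Figure D3:**
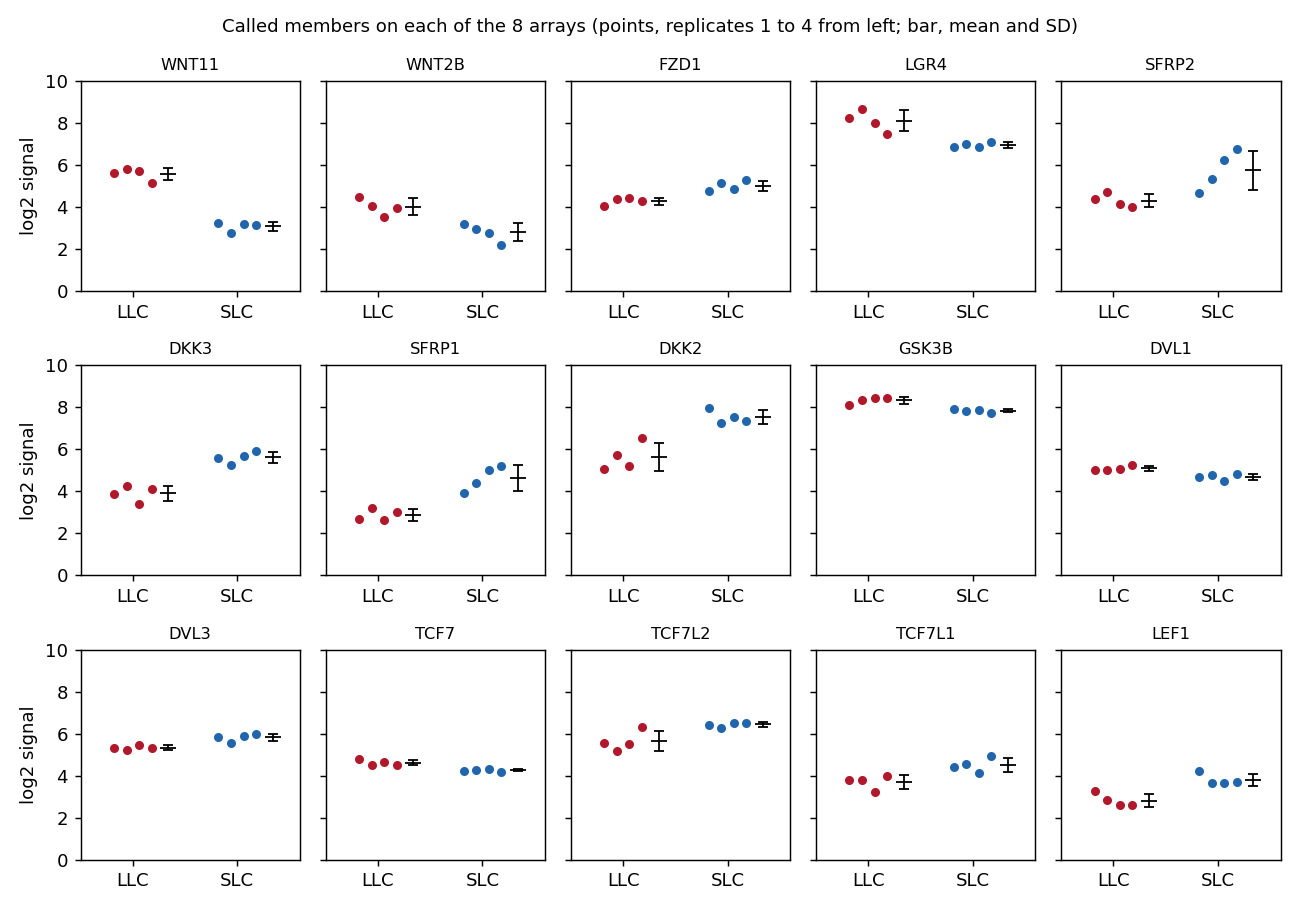
Log2 signal (vertical axis) of the 15 called members on each array, with LLC (red) left of SLC (blue) and the mean and SD beside the points. The SLC arrays of SFRP1 and SFRP2 spread more than those of DKK2 and DKK3, and WNT11 shows the widest gap between the cell types.

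In the cytoplasm, the differences were below 2-fold. GSK3B, the kinase that phosphorylates beta-catenin, was at 8.10, 8.35, 8.45 and 8.43 in LLC and at 7.93, 7.84, 7.85 and 7.74 in SLC. All LLC arrays were higher, by a fold of 1.41 (difference 0.49, SE 0.11, limma adjusted p = 0.0103). Both other clusters of GSK3B pointed the same way, by 0.42 (adjusted p = 0.0250) and 0.36 (adjusted p = 0.0265). The Dishevelled genes were split. DVL3 was at 5.31, 5.21, 5.48 and 5.31 in LLC and 5.86, 5.55, 5.90 and 5.96 in SLC, below SLC on every LLC array (difference -0.49, SE 0.12, adjusted p = 0.0156, and 0.0508 without SLC replicate 4). DVL1 was at 5.03, 5.02, 5.06 and 5.25 in LLC and 4.68, 4.76, 4.51 and 4.81 in SLC (difference 0.40, SE 0.11, adjusted p = 0.0241). Its second cluster, of lower mean, differed by -0.07 (adjusted p = 0.907), and the call was lost without SLC replicate 1 (0.0606) or SLC replicate 3 (0.0684), so the direction of DVL1 rests on 1 of 2 clusters. DVL2 was at 3.95, 4.36, 4.62 and 4.64 in LLC and 4.78, 4.65, 4.48 and 4.54 in SLC, with overlapping groups (difference -0.22, adjusted p = 0.410).

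CTNNB1, which encodes beta-catenin, had very close replicates, at 8.06, 8.01, 7.99 and 8.07 in LLC and 8.20, 8.27, 8.26 and 8.32 in SLC. The groups did not overlap, but the difference was small (-0.23, interval -0.42 to -0.04, limma adjusted p = 0.0926). A linear model without moderation, which does not share the spread between clusters, gave an adjusted p of 0.0119. APC was at 6.71, 6.66, 6.64 and 6.70 in LLC and 6.67, 6.61, 6.63 and 6.36 in SLC, with overlapping groups (difference 0.11, interval -0.11 to 0.33). AXIN2, a target that reports signaling through beta-catenin in many tissues, was named after its values had been seen. It was at 2.96, 3.11, 2.92 and 3.24 in LLC and 3.5, 2.85, 3.24 and 3.25 in SLC, with overlapping groups (difference -0.15, interval -0.48 to 0.17, adjusted p = 0.553). AXIN1 averaged 4.20 in LLC and 4.22 in SLC.

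All 4 TCF/LEF factors were called, 3 of them higher in SLC (75%) and 1 higher in LLC (25%). Of all clusters, 10.2% and 9.64% were called in these directions. LEF1 alone of the 4 kept its call in all 18 alternative settings. LEF1 was at 3.27, 2.82, 2.58 and 2.59 in LLC and at 4.24, 3.66, 3.63 and 3.70 in SLC. The groups were apart, at a fold of 1.99, just short of the filter (difference -0.99, SE 0.19, limma adjusted p = 0.00517). TCF7L1, which mostly represses its targets, was at 3.79, 3.79, 3.20 and 3.96 in LLC and 4.41, 4.56, 4.12 and 4.93 in SLC. It was below SLC on every LLC array (difference -0.82, SE 0.20, adjusted p = 0.0177, and 0.0767 without moderation). TCF7 went the other way, at 4.79, 4.52, 4.63 and 4.51 in LLC and 4.24, 4.25, 4.32 and 4.19 in SLC. Its difference was small and the replicates close (0.36, SE 0.10, adjusted p = 0.0277). Leaving out LLC replicate 1 or 3 or SLC replicate 1, 2 or 4 took the adjusted p of TCF7 to between 0.0589 and 0.0779. LEF1 and TCF7 are also expressed in T cells. Of the 9 lymphocyte markers, IL7R was higher in SLC, as LEF1 was, CD3E averaged 2.63 in LLC and 2.66 in SLC, and CD2, CD3D, CD4 and CD8A lay within the background. The part of T cells in LEF1 and TCF7 was not tested.

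Around these members, 129 other genes of the pathway were measured, with 17 called on the LLC side (13.2%) and 27 on the SLC side (20.9%), beside the 9.64% and 10.2% of all clusters. Among 16 co-receptors and surface regulators, 3 were called on the LLC side and 4 on the SLC side. GPC4, a glypican, was at 7.5, 7.18, 7.46 and 6.87 in LLC and 5.89, 5.61, 6.49 and 5.60 in SLC (2.56-fold higher in LLC, limma adjusted p = 0.00213). GPC3, another glypican, went the other way, at 4.74, 5.54, 5.40 and 6.66 in LLC and 7.44, 7.22, 6.87 and 7.78 in SLC (3.35-fold higher in SLC, adjusted p = 0.00720), and was named after its values had been seen. ROR2, a receptor for WNT5A, was lower in LLC, at 2.98, 3.49, 2.98 and 3.49, against 3.87, 4.28, 4.52 and 4.87 in SLC (2.22-fold higher in SLC, adjusted p = 0.00497). The syndecans SDC1 (-1.14) and SDC4 (-0.84) were also higher in SLC. Among 10 other secreted modulators, NDP was higher in LLC and APCDD1, DKKL1 and SERPINF1 higher in SLC. NDP encodes Norrin, a ligand of FZD4 that is no Wnt protein. It was at 5.62, 5.96, 5.78 and 4.09 in LLC and 2.68, 2.36, 2.31 and 2.18 in SLC. LLC replicate 4 was the lowest LLC array but lay above all SLC arrays, and the signal was 7.89-fold higher in LLC (difference 2.98, SE 0.35, adjusted p = 0.000564).

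Of 30 genes of the destruction complex and other cytoplasmic regulators, 6 were higher in LLC and CSNK1G2 higher in SLC. Over all clusters, 9.64% were called on the LLC side and 10.2% on the SLC side. TNKS, a tankyrase that marks AXIN for degradation, was at 9.52, 9.49, 9.95 and 8.88 in LLC and 6.91, 7.04, 7.34 and 7.18 in SLC. The arrays of the cell types lay far apart, by a fold of 5.07 (difference 2.34, SE 0.20, limma adjusted p = 0.000124). Its relative TNKS2 differed by 0.53, CAPRIN2, which promotes phosphorylation of LRP6, by 1.89 (SE 0.17, adjusted p = 0.000135), and the casein kinase gene CSNK2A2 by 0.97. In the planar polarity and calcium branch, DAAM1 and MAPK8 of 21 genes were higher in LLC, and NFATC2, RAC1 and ROCK2 higher in SLC, all by less than 2-fold. Of 25 nuclear partners of beta-catenin, BCL9 (0.59) and HDAC1 (1.08) were higher in LLC, and CREBBP, SOX7, TBL1X (-0.68) and TLE4 (-0.59) higher in SLC. For these partners and for the planar polarity and calcium branch, the LLC counts were near the share of all clusters.

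Among 27 genes known as Wnt targets in other tissues, 3 were called on the LLC side and 12 on the SLC side, where 9.64% and 10.2% of all clusters were. The LLC count is near that share. The median was -0.48. CD44, an adhesion receptor, was at 5.11, 5.0, 4.25 and 4.17 in LLC and 5.98, 6.46, 6.43 and 6.28 in SLC (3.15-fold higher in SLC, limma adjusted p = 0.00104). The gap junction gene GJA1 differed by -0.88 (adjusted p = 0.00119). VEGFA, an angiogenic factor, was at 10.03, 9.61, 9.88 and 9.43 in LLC and 7.71, 7.03, 7.55 and 7.71 in SLC (4.72-fold higher in LLC, adjusted p = 9.46e-05), and ID2, an inhibitor of differentiation, differed by 1.06. These genes answer to many signals besides Wnt. CD44, PLAUR, SNAI2 and TWIST1 are also genes of stromal or immune cells, many of whose markers were higher in SLC. The part of those cells in this list was not tested.

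**Figure D4:**
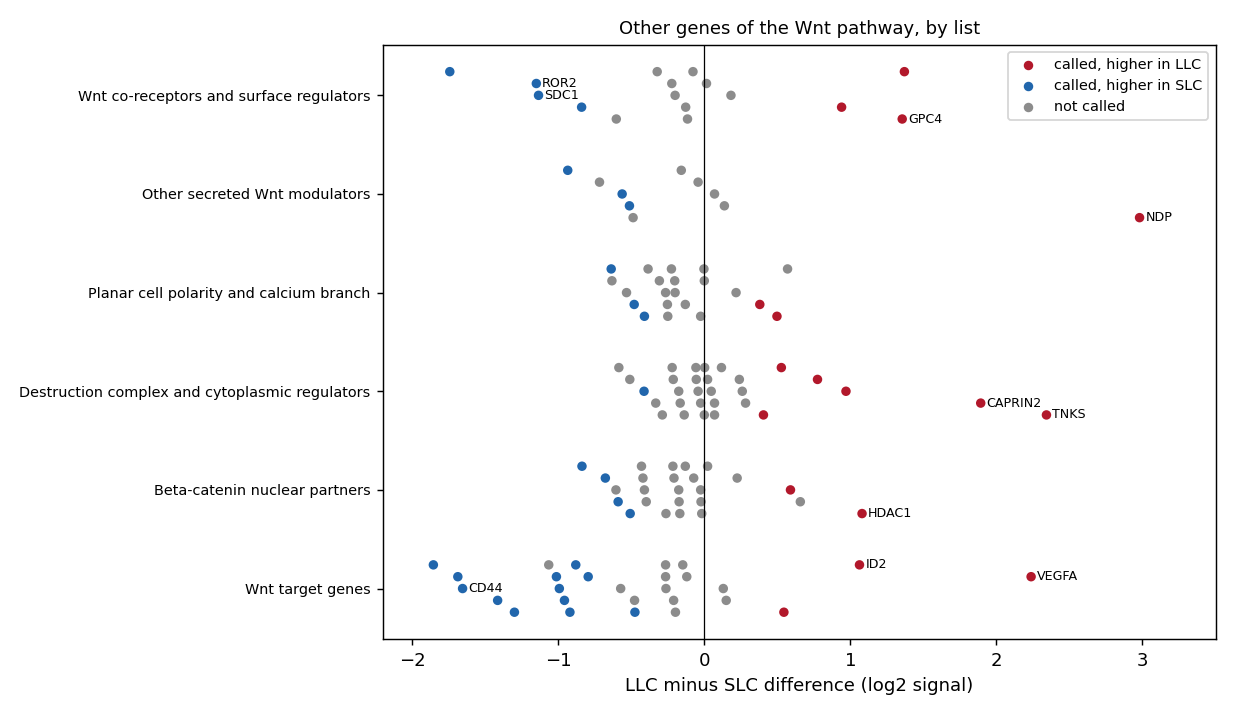
LLC minus SLC difference in log2 signal (horizontal axis) of the 129 other pathway genes in 6 lists, with each point a gene and the vertical offset only for legibility. NDP, TNKS, VEGFA and CAPRIN2 lie farthest on the LLC side. On the SLC side, 12 of the 27 target genes are called, where 10.2% of all clusters were.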

How the data were processed

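RNA of 4 LLC and 4 SLC samples was hybridised to Bovine Gene 1.0 ST arrays. The authors normalised the arrays with RMA and deposited log2 signals per transcript cluster, to 2 decimals. The background correction and summarisation of RMA draw dim signals together, so that folds of dim genes are understated, and the number of arrays limits the precision. Of 24415 clusters, 18457 had 1 gene symbol in the platform annotation, 688 several and 5270 none, and only clusters with 1 symbol were named. All 60 members matched RefSeq (ARS-UCD 2.0) by gene number and symbol.

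All clusters were fitted with limma 3.58.1 in R 4.3.3 (lmFit and eBayes) on cell type, without a block, and p-values were adjusted over all clusters with the Benjamini-Hochberg method. Called means an adjusted p under 0.05. The script was tested on simulated data. Deviations of LLC and SLC arrays of the same number correlated at -0.13, -0.07, 0.17 and 0.01 over all clusters. Such correlations cannot decide whether samples of the same number came from the same cow, so a replicate block was tried as an alternative. Array values are given for called members, for up to 3 other members of the highest mean per role, and at most 4 genes per pathway list were named by adjusted p, beside those listed only by direction. Members and lists were chosen with earlier results of these data known. Alternatives were array centring, quantile normalisation, array weights, a filter on dim clusters, the variance prior, no moderation, the mean of clusters, the replicate block, a minimum fold (treat) and leaving out each array. Holding signals at the background limit was added after seeing the data.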

Additional observations from a re-analysis of the deposited data

Results flagged for a closer look

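In 3 of 72 groups of 4 arrays, 1 array lay far from the others by Dixon's criterion at the 95% level (the gap to the nearest array over the range of the group), where chance flags about 1 group in 20. LRP6 was at 6.60 in LLC replicate 4 and at 5.46 to 5.56 in the other LLC arrays (gap over range 0.912). WLS was at 6.94 in LLC replicate 4 and at 5.79 to 5.95 in the other LLC arrays (0.861). LEF1 was at 4.24 in SLC replicate 1 and at 3.63 to 3.70 in the other SLC arrays (0.885).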

How the results depend on the processing

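WNT11, WNT2B, LGR4, DKK2, DKK3, SFRP1 and LEF1 kept their direction and their call in all 18 alternative settings. With a minimum fold of 1.2 (treat), 3 members were called higher in LLC and 4 higher in SLC, those same 7 genes, since treat asks for more than a nonzero difference. The share of all clusters called with treat is not given here, so these counts are not set against one. SFRP2 and TCF7L2 each lost the call in 9 settings, TCF7 in 7, DVL1 in 4, TCF7L1 in 3 and DVL3 in 2. LRP6 was gained in 4. The cause was not tested. LRP5, which was not called, ranged from -0.118 to 0.0117 when arrays were left out in turn, with the positive value without LLC replicate 1. With the replicate block, 17 members were called, 14 of them shared with the 15 called without it. Of all 24415 clusters, 4336 were called with the block and 4834 without it, with 4054 shared. TCF7 was lost (adjusted p = 0.0653), and FZD4 (0.0126), FZD8 (0.0282) and RSPO3 (0.0470) were gained. By deviations from the mean of each cell type, an LLC array correlated best with the SLC array of its own number only for replicate 3. Small differences and genes within the background are limited by 4 arrays per cell type.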

Other observations

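4 pairs of Wnt genes are neighbours in the RefSeq annotation, and no gene of these pairs was called. All are ligands, of which 16 of 18 were not called, so this is not read as a trait of neighbours. Of all clusters, 9.64% were called higher in LLC and 10.2% higher in SLC. The LLC minus SLC differences were 0.14 for WNT9B and 0.09 for WNT3, -0.07 for WNT6 and -0.04 for WNT10A, 0.24 for WNT1 and 0.03 for WNT10B, and 0.29 for WNT3A and 0.09 for WNT9A. For 35 of the 60 members the LLC arrays had the larger SD, as they had for 16049 of all 24415 clusters. The members had a median SD of 0.206 in LLC and 0.176 in SLC, against 0.205 and 0.155 over all clusters.

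The summed linear signal of 10 vascular endothelial markers was 615, 763, 252 and 721 in LLC replicates 1 to 4 and 1050, 1440, 948 and 1600 in SLC replicates 1 to 4. Endothelial cells also express FZD4 and RSPO3. FZD4 was lowest in replicate 3 of each cell type (4.41 in LLC and 5.27 in SLC), as this sum was. RSPO3 was lowest in replicate 3 in SLC (2.43, against 3.04 to 3.86). In LLC its 4 arrays lay at 2.38 to 2.59, near the background limit of 2.34, and replicate 3 (2.38) hardly differed from replicate 1 (2.40). The part of endothelial cells in the values of FZD4 and RSPO3 was not tested.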
